A study of Mus musculus with 21 samples.

Results

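Nuclear receptors are transcription factors, most of them switched by small lipid-soluble ligands, and 39 mouse genes of this family were followed here through the conversion of hepatocytes into culturable progenitors and through their return towards hepatocyte culture conditions. The 39 genes were taken by name from the array annotation, out of 36990 named genes with a usable value on every array. The study put total RNA from 7 groups of female C57BL/6 mouse cells, with 3 samples each, on 21 one-colour Agilent expression arrays. Chemically induced liver progenitors (CLiPs) are proliferating cells obtained from hepatocytes in culture. The CLiP groups at late passage were cells after 12 passages for replicates 1 and 2 and after 11 passages for replicate 3, taken after 8 days with hepatic induction, after 8 days without it, and at day 0. The CLiP groups at passage 1 (P1) had the same 3 conditions, again with 8 days of culture in the induced and non-induced groups. Hepatic induction meant culture with the cytokine oncostatin M and the synthetic glucocorticoid dexamethasone. The remaining group was freshly isolated hepatocytes, which were neither cultured nor induced. Nothing in the labels says whether the 3 samples of a group came from separate animals or cultures, so each p-value reflects only how far these samples lie apart, a spread that may be technical.

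Nuclear receptors bind short DNA elements built from a hexamer half-site, alone, as homodimers, or as heterodimers with a retinoid X receptor, and recruit coactivators or corepressors according to the ligand. In hepatocytes, PXR (Nr1i2) and CAR (Nr1i3) sense drugs and other foreign compounds, FXR (Nr1h4) senses bile acids, LXR alpha (Nr1h3) senses oxysterols, PPAR alpha (Ppara) senses fatty acids, and the glucocorticoid receptor (Nr3c1) is the receptor of dexamethasone. SHP (Nr0b2) lacks a DNA-binding domain and represses other receptors, and LRH-1 (Nr5a2) is a monomeric activator of bile acid and cholesterol genes.

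A level below is the log2 signal of the gene's brightest probe minus the array's 75th percentile, so it can be compared between arrays for a gene but not between genes. A change was called when the limma adjusted p, over all genes tested, was under 0.05 and the change was at least 2-fold. The fresh and P1 arrays were fitted together, the late arrays together, and comparisons that cross them over all 21 arrays. Of the 39 receptors, 24 were well above background on all 21 arrays, 14 on some, and 1, the HNF4 paralogue Hnf4g, on none. Hnf4g was tested in no fit, and neither was Esrrg, an orphan receptor of the oestrogen-related family. The orphan receptors Nr2f1 and Rorb were not tested among fresh and P1 arrays, and Nr0b2, the oestrogen receptor Esr1 and the retinoid X receptor Rxrg were not tested among late arrays. Between 46.1% and 60.5% of probes were well above background per array. The 75th percentile of the signal was 881 to 1241 on late arrays and 466 to 789 on P1 arrays, against 291 to 332 on fresh arrays. Late arrays were read on another scanner with another software version, so passage and scanner cannot be told apart in a direct comparison of late arrays with P1 or fresh arrays. Summed signal of 8 hepatocyte markers, relative to the 75th percentile, was 392 to 704 in late induced CLiPs, 49.2 to 147 in late CLiPs at day 0, 1250 to 1510 in P1 induced CLiPs and 879 to 1110 in P1 CLiPs at day 0, against 3470 to 4240 in fresh hepatocytes. Such sums follow the brightest markers. Gene by gene, 8 of 8 were lower in P1 CLiPs at day 0 than in fresh hepatocytes, with a median change of -5.74.

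Promoter sequence was examined for the receptors on which the induction results turn: 3 that rose under induction at both passages (Nr1h4, Rxra and Thrb), 1 that rose under induction at late passage and not at P1 (Rarb), and 1 whose signal was at background in late CLiPs at day 0 (Nr5a2). Each sequence is a window of 300 bases, with 250 before the annotated start and 50 after it, from RefSeq on build GRCm38.p6, and 36 of the 39 receptors had at least 1 window. Rxra, Thrb and Nr5a2 had 2 windows each, of which the window with the half-site is shown. Capitals mark the nuclear receptor half-site AGGTCA on either strand (TGACCT on the other) and, in Rarb, a retinoic acid response element in its textbook form, GGTTCA, any 5 bases and AGTTCA. The windows are Rarb at chr14:16575427-16575726 (minus strand), Rxra at chr2:27709042-27709341 (plus strand), Nr1h4 at chr10:89506609-89506908 (minus strand), Thrb at chr14:17660710-17661009 (plus strand) and Nr5a2 at chr1:136960399-136960698 (minus strand).
Rarb: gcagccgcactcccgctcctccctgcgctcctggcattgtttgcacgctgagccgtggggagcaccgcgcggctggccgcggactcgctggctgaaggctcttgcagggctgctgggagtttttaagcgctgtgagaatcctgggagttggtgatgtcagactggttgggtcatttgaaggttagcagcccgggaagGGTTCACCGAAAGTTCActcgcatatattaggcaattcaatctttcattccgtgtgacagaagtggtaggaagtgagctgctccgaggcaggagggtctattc
Rxra: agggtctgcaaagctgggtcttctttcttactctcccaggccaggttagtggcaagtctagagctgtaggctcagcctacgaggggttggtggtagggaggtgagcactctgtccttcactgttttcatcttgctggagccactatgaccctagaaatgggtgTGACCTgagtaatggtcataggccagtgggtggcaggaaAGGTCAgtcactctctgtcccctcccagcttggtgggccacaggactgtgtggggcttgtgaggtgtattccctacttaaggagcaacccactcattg
Nr1h4: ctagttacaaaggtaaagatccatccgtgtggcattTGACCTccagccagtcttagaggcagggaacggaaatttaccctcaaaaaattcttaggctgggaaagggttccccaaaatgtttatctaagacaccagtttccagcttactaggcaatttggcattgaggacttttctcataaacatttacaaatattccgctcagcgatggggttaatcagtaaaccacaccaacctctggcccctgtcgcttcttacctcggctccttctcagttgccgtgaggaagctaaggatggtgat
Thrb: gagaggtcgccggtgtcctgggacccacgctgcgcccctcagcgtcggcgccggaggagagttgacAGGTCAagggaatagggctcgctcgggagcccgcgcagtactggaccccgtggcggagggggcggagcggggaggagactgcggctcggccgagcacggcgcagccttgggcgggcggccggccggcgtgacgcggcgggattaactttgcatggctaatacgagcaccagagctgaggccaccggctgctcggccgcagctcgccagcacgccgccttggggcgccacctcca
Nr5a2: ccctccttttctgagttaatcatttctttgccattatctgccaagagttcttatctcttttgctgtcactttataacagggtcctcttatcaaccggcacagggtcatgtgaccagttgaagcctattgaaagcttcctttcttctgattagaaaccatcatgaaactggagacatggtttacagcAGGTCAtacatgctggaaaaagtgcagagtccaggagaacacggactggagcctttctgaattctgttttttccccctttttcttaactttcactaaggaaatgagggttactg

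In Rarb the repeat started 53 bases before the start site, as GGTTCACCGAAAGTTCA, and its letters overlapped a match to the STAT motif TTCNNNGAA at 51 bases before the start. Only 2 of 32851 windows held that repeat on either strand, and Rarb was the only one of the 36 receptors with a window that did. The half-site AGGTCA occurred in 1 or more windows of 10 of these 36 receptors, against 18.13% of 27025 genes. In the windows shown it lay 48 and 87 bases before the start in Rxra (the second on the opposite strand), 214 in Nr1h4, 184 in Thrb and 64 in Nr5a2. The other window of Rxra, of Thrb and of Nr5a2, at another annotated start, held no AGGTCA on either strand. The glucocorticoid response element (G, any base, ACA, any 3 bases, TGT, any base, C) was in no receptor's window and in 0.47% of all windows. The STAT motif was in windows of 6 receptors and 9.55% of genes. These matches are letters in a window and say nothing of binding.

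The first comparison asked how the receptors of P1 CLiPs at day 0 stood against those of fresh hepatocytes. Most fell: 24 of 35 tested receptors were lower in P1 CLiPs at day 0 and 2 were higher, so that 74.3% were called, against 50.6% of all genes tested (25.2% lower and 25.4% higher). The median change was -2.07 for the receptors and -0.01 for the 20619 genes. In all 26 called receptors the P1 day-0 and fresh arrays did not overlap. RNA from a mixed sample cannot tell fewer cells of a type from less RNA per cell.

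**Figure D1:**
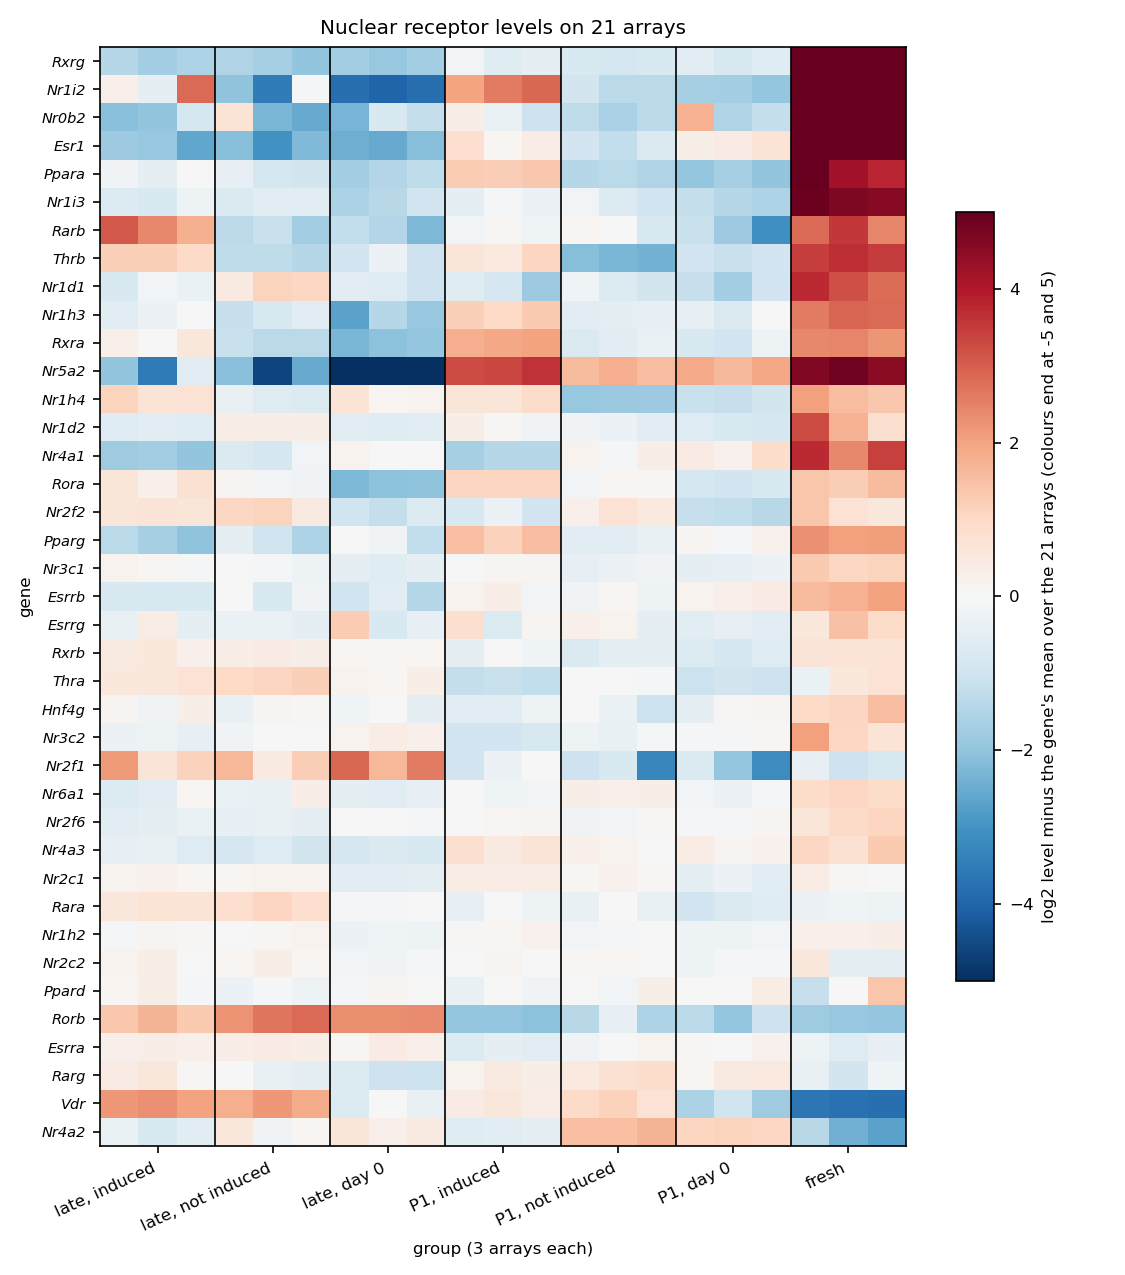
Levels of 39 nuclear receptors on 21 arrays. Each row is a gene and each column an array, colour gives the log2 level minus the gene's mean over the 21 arrays (red higher, blue lower, colours end at -5 and 5), and genes run by their P1 day-0 minus fresh difference from most negative at the top to most positive at the bottom. Fresh arrays are the reddest columns for the upper rows, and Vdr and Nr4a2, at the bottom, are bluest there.

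The xenobiotic and bile acid sensors fell. Nr1i2 (PXR) was at -4.84, -4.86 and -5.09 in P1 CLiPs at day 0, not well above background on any array, against 1.86, 2.27 and 2.37 in fresh hepatocytes, which made it at least 66.5-fold lower in the CLiPs (adjusted p = 4.3e-10). Nr1i3 (CAR) stood at -3.07, -3.28 and -3.42 in the same CLiPs, against 3.05, 2.81 and 2.68 in fresh cells, a change of -6.10 (SE 0.21, adjusted p = 6.6e-10). Both sensors were far below all fresh arrays. Their target genes, which encode cytochromes P450 and other drug-handling proteins, were lower for 12 of 12 tested, with a median change of -7.23. Among them Cyp3a25 was at least 1530-fold lower and Cyp2b10 changed by -10.77 (SE 0.48). Nr1h4 (FXR) remained well above background but was lower, at 2.55, 2.50 and 2.73 in P1 CLiPs at day 0, against 5.72, 5.21 and 5.01 in fresh hepatocytes, a change of -2.72 (SE 0.17, adjusted p = 8.3e-08). Nr0b2, the FXR-induced repressor SHP, read -2.93, -6.19 and -5.84 in P1 CLiPs at day 0, with only the first of these well above background, against 1.34, 2.21 and 2.07 in fresh hepatocytes (adjusted p = 5.3e-06). Of 11 tested FXR targets and bile acid enzymes, 10 fell and none rose, including the bile salt export pump Abcb11, at least 3470-fold lower, and Cyp7a1, the rate-limiting enzyme of bile acid synthesis, at least 91.8-fold lower. Nr5a2 (LRH-1) was at 1.21, 0.94 and 1.25 in P1 CLiPs at day 0, against 3.96, 4.20 and 3.83 in fresh hepatocytes, a change of -2.87 (SE 0.14, adjusted p = 9.6e-09).

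Among the lipid sensors, Ppara had the deepest fall. It was at -0.95, -0.67 and -0.98 in P1 CLiPs at day 0, against 6.10, 5.18 and 4.79 in fresh hepatocytes, a change of -6.22 (SE 0.26, adjusted p = 3.2e-09). Pparg, best known as a regulator of adipocytes, changed by -2.07 (SE 0.13, adjusted p = 9.7e-08), whereas Ppard, the widely expressed member of the subfamily, changed by 0.07 with a 95% confidence interval of -0.99 to 1.13. Ppard read 1.17, 1.14 and 1.50 in P1 CLiPs at day 0, against -0.03, 1.1 and 2.52 in fresh hepatocytes, where the arrays were far apart, and its change was -1.25 (adjusted p = 0.012) with scan date as a block. Of 16 PPAR targets, 13 fell and 1, the lipase inhibitor Angptl4, rose, with a change of 1.87 (SE 0.37). Nr1h3 (LXR alpha) was at 2.24, 1.92 and 2.63 in P1 CLiPs at day 0, against 5.22, 5.56 and 5.46 in fresh hepatocytes, a change of -3.15 (SE 0.17, adjusted p = 2.4e-08). Its ubiquitous paralogue Nr1h2 (LXR beta) changed by only -0.50 (SE 0.09) and was not called. LXR targets fell for 7 of 8 tested, with the sterol transporter Abcg5 at -8.50 (SE 0.36). Nr1h3 is also expressed by liver macrophages, and the summed signal of 7 macrophage markers was 3.45 to 3.75 in P1 CLiPs at day 0, with Clec4f, Cd5l, Adgre1 and Vsig4 not above background, against 8.77 to 29.2 in fresh hepatocytes. The part of macrophages in the Nr1h3 result was not tested.

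All 3 retinoid X receptors, the shared partners of these sensors, were lower. Rxra, the main form in liver, was at 4.62, 4.42 and 5.12 in P1 CLiPs at day 0, against 7.80, 7.83 and 7.59 in fresh hepatocytes, a change of -3.02 (SE 0.18, adjusted p = 4.3e-08). Rxrb, widely expressed, changed by -1.39 (SE 0.13). Rxrg was not above background on any P1 array at day 0 and read 1.13, 2.01 and 2.01 in fresh hepatocytes, so it was at least 48.6-fold lower in the CLiPs (adjusted p = 2.0e-10). The retinoic acid receptors split: Rarb, which retinoic acid itself induces, changed by -4.95 (SE 0.45, adjusted p = 1.9e-06), while Rara (-0.51, SE 0.14) and Rarg (0.84, SE 0.19) were not called. Rarb read -3.16, -3.88 and -5.12 in P1 CLiPs at day 0, where 1 of 3 arrays was well above background, against 0.78, 1.50 and 0.41 in fresh hepatocytes. Of 6 tested targets of the retinoid and vitamin D receptors, 5 fell and 1 rose, with a median of -4.21, and the retinoid-handling reductase Dhrs3 changed by -9.79 (SE 0.32) while Cyp26a1, which degrades retinoic acid, was at least 84.6-fold lower. The thyroid hormone receptor Thrb, the predominant form in hepatocytes, was at -3.19, -3.38 and -3.22 in P1 CLiPs at day 0, against 1.20, 1.45 and 1.25 in fresh hepatocytes, a change of -4.57 (SE 0.15, adjusted p = 5.3e-10). Thra changed by -1.31 (SE 0.22, adjusted p = 0.00022). The gene for Thra runs from 98740776 to 98769006 and that for Nr1d1 from 98767932 to 98775377 on chromosome 11 of GRCm38.p6, so the 2 genes overlap, although their probes are separate. Thyroid hormone targets fell for 3 of 6 and rose for 1, with Thrsp at -10.35 (SE 0.34).

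The circadian repressors fell as well. Nr1d1 (REV-ERB alpha) was at -3.36, -3.92 and -3.19 in P1 CLiPs at day 0, against 1.52, 1.01 and 0.56 in fresh hepatocytes, a change of -4.52 (SE 0.35, adjusted p = 4.8e-07). Nr1d2 (REV-ERB beta) changed by -2.70 (SE 0.46, adjusted p = 0.00026), with a wide spread on fresh arrays, at 3.81, 2.29 and 1.37. Rora, the activator that competes with the REV-ERBs for their sites, changed by -2.26 (SE 0.11, adjusted p = 7.5e-09). Of 13 tested clock genes outside the receptor family, 8 fell and none rose. The fresh arrays lay far apart for some clock genes and close together for others. In examples chosen after their values were seen, they read 7.51, 3.45 and 0.02 for Dbp and -1.08, 1.8 and 2.39 for Arntl. For Cry2 they read 4.27, 3.72 and 3.77. The labels give no time of day for any sample, and its part in these results was not tested.

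Steroid receptors fell to different depths. Esr1, the oestrogen receptor alpha of these female mice, was at -3.67, -3.57 and -3.29 in P1 CLiPs at day 0, against 2.67, 2.88 and 3.40 in fresh hepatocytes, a change of -6.49 (SE 0.23, adjusted p = 9.8e-10). Nr3c1, the glucocorticoid receptor, fell less, to 3.08, 3.16 and 3.26 in P1 CLiPs at day 0 against 4.85, 4.59 and 4.66 in fresh hepatocytes, a change of -1.53 (SE 0.10, adjusted p = 1.6e-07). Nr3c2, the mineralocorticoid receptor, changed by -1.28 (SE 0.28, adjusted p = 0.0014), a difference that came to -0.88 without fresh replicate 1 and -0.70 with scan date as a block, neither of which reached 2-fold.

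Orphan receptors moved both ways. Nr4a2, an immediate early gene, was higher, at -0.23, -0.17 and -0.24 in P1 CLiPs at day 0 against -2.67, -3.71 and -3.96 in fresh hepatocytes, where 1 of 3 arrays was well above background, a change of 3.23 (SE 0.26, adjusted p = 6.4e-07). Its paralogue Nr4a1 was lower, at 0.62, 0.45 and 1.09 in P1 CLiPs at day 0 against 3.95, 2.60 and 3.65 in fresh hepatocytes, a change of -2.68 (SE 0.30, adjusted p = 1.1e-05). The third paralogue, Nr4a3, was not called (-0.79, SE 0.15). Of 8 immediate early genes outside the family, 5 fell, Fos by 4.47 on the log2 scale, and none rose. Nr2f2 (COUP-TFII), a regulator of venous and mesenchymal cells as well as hepatocytes, changed by -2.15 (SE 0.23, adjusted p = 6.7e-06). Beside it, 7 endothelial markers summed to 0.551 to 0.925 in P1 CLiPs at day 0, with Kdr, Lyve1, Cdh5 and Tek not above background, against 4.23 to 7.36 in fresh hepatocytes. Stellate cell and fibroblast markers went the other way, with sums of 39.1 to 58 in these CLiPs and 11.9 to 16.1 in fresh hepatocytes. Of 7 tested, 5 were higher and none was lower, with a median change of 2.15. The part of either list in the Nr2f2 result was not tested. Nr6a1, the germ cell nuclear factor, changed by -1.13 (SE 0.09), and Esrrb by -1.48 (SE 0.16), each falling short of 2-fold when all probes of the gene were averaged (-0.92 and -0.74).

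Vdr, the vitamin D receptor, was the other receptor that rose. It was at -3.19, -2.57 and -3.37 in P1 CLiPs at day 0, against -5.21, -5.31 and -5.36 in fresh hepatocytes, where it was not above background on any array, so that it was at least 1.19-fold higher in the CLiPs (adjusted p = 8.3e-07). With normexp background correction in place of the scanner's subtraction, the change was 0.20 (adjusted p = 0.19). Beside it, 7 biliary and progenitor markers summed to 438 to 466 in P1 CLiPs at day 0, against 1.05 to 1.85 in fresh hepatocytes, where Krt19, Krt7, Epcam, Cd24a and Cldn4 were not above background, and their part in the Vdr result was not tested. The other receptors that were tested and not called were Nr2c1 (-0.58), Nr2c2 (-0.01), Nr2f6 (-0.89) and Esrra (0.54). A second Esrra probe, above background on 5 of 6 arrays, gave 2.29. Of 15 coactivators and corepressors, 6 fell and none rose, with the metabolic coactivators Ppargc1a at -4.95 (SE 0.24) and Ppargc1b at -3.87 (SE 0.23).

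The second comparison asked what oncostatin M and dexamethasone did to receptor levels at P1. Induction raised 10 of 35 tested receptors and lowered 4, so 40% were called, against 18.7% of all genes tested (9.69% higher and 9.02% lower). All 10 that rose had been lower in P1 CLiPs at day 0 than in fresh hepatocytes, and they made up 41.7% of the 24 receptors that were lower there. Among all genes that rose under induction 64.8% had been lower, or 24.9% of the genes that were lower, and these 2 comparisons share no arrays. Of the 4 that fell under induction, 3 (Nr2f2, Nr4a1 and Thra) had also been lower at day 0 (75% of the 4 and 12.5% of the 24), against 6.56% of all genes that fell and 2.35% of all that had been lower.

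**Figure D2:**
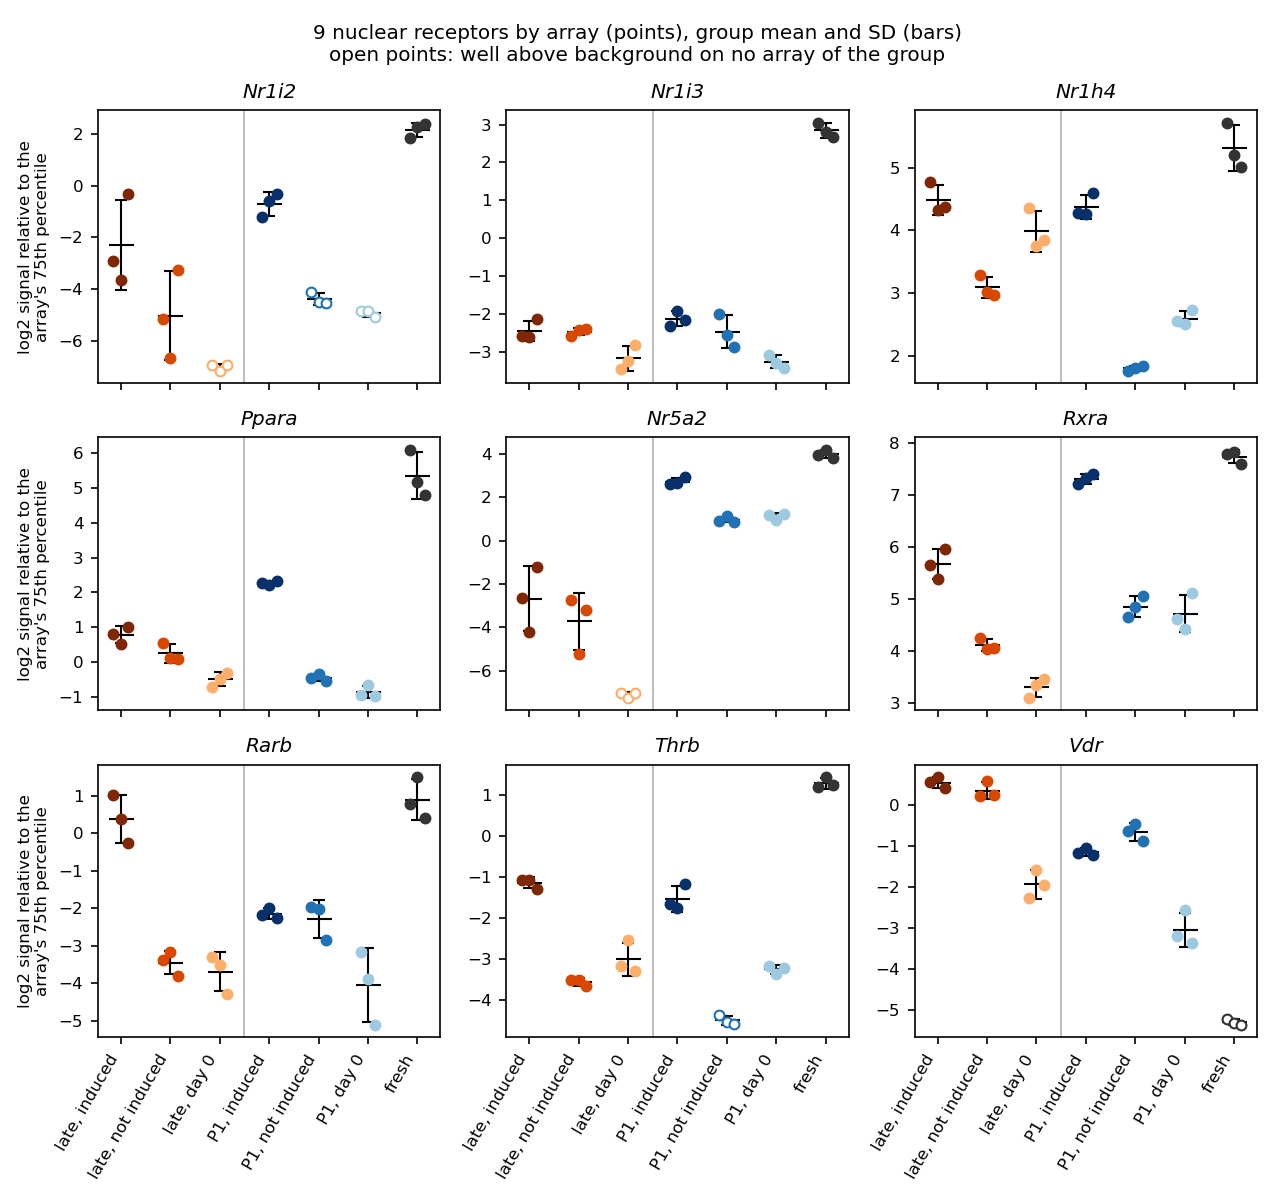
Levels of 9 receptors on each array (points), with the group mean and SD (bars, n = 3), as log2 signal relative to the array's 75th percentile. Groups run from late induced at the left to fresh at the right, the grey line parts late arrays from P1 and fresh arrays, and open points mark groups in which no array was well above background. Rarb was near the fresh level only in late induced CLiPs, Nr5a2 was at background in late CLiPs at day 0, and Nr1i3 stayed between -3.45 and -1.91 in every CLiP sample.

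Among the sensors of foreign compounds and bile acids, PXR, FXR and LRH-1 rose and CAR did not pass the test. Nr1i2 was at -1.21, -0.59 and -0.31 in P1 induced CLiPs, against -4.10, -4.50 and -4.53 without induction, where it was not above background, which made it at least 9.79-fold higher with induction (adjusted p = 5.8e-07). Nr1i3 was at -2.31, -1.91 and -2.15 in P1 induced CLiPs, against -1.99, -2.55 and -2.86 without induction. The Nr1i3 arrays overlapped, and its change of 0.35 had a 95% confidence interval of -0.12 to 0.81. CAR and PXR targets rose for 8 of 12 tested and fell for none, with a median of 2.29, including Cyp3a25 (5.48, SE 0.41) and Cyp3a11 (4.03, SE 0.35). Nr1h4 was at 4.28, 4.26 and 4.60 in P1 induced CLiPs, against 1.76, 1.81 and 1.84 without induction, a change of 2.58 (SE 0.17, adjusted p = 9.4e-07). FXR targets and bile acid enzymes rose for 7 of 11 and fell for none, Abcb11 by at least 68.3-fold, whereas the FXR-induced Nr0b2 was not above background in either group. Nr5a2 was at 2.60, 2.68 and 2.93 in P1 induced CLiPs, against 0.92, 1.13 and 0.89 without induction, a change of 1.75 (SE 0.14, adjusted p = 3.2e-06).

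Lipid sensors and their partner also rose, beside hepatocyte markers that summed to 1250 to 1510 in P1 induced CLiPs and 870 to 939 without induction, and macrophage markers that summed to 7.94 to 10.2 with induction and 17.1 to 22.8 without. Gene by gene, 6 of the 8 hepatocyte markers were higher with induction and none was lower, with a median change of 2.80. Of the macrophage markers only Csf1r was called (-1.18, SE 0.24, adjusted p = 0.0026), while Clec4f, Cd5l, Adgre1 and Vsig4 were not above background in either group. The part of either list in these results was not tested. Ppara was at 2.26, 2.22 and 2.34 in P1 induced CLiPs, against -0.46, -0.36 and -0.54 without induction, a change of 2.73 (SE 0.26, adjusted p = 1.3e-05). Pparg was at 1.65, 1.27 and 1.68 in P1 induced CLiPs, against -0.40, -0.40 and -0.22 without induction, a change of 1.87 (SE 0.13, adjusted p = 1.5e-06). Neither gene's arrays overlapped between the groups, and 6 of 16 PPAR targets rose while 1, the pantetheinase Vnn1, fell. Nr1h3 was at 3.83, 3.61 and 3.93 in P1 induced CLiPs, against 2.10, 2.19 and 2.22 without induction, a change of 1.62 (SE 0.17, adjusted p = 2.4e-05). LXR targets rose for 4 of 8, the desaturase Scd1 by 4.99 (SE 0.33). Rxra was at 7.21, 7.32 and 7.41 in P1 induced CLiPs, against 4.65, 4.85 and 5.06 without induction, a change of 2.46 (SE 0.18, adjusted p = 1.5e-06).

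The pair of thyroid hormone receptors moved in opposite directions at P1. Thrb was at -1.65, -1.77 and -1.18 in P1 induced CLiPs, against -4.38, -4.55 and -4.60 without induction, where it was not above background, and was therefore at least 5.54-fold higher with induction (adjusted p = 1.7e-07). Thra was at 0.76, 0.82 and 0.72 in P1 induced CLiPs, against 1.96, 1.94 and 1.83 without induction, a change of -1.15 (SE 0.22, adjusted p = 0.0016). A second Thra probe gave -0.92 and the mean of its probes -0.75, short of 2-fold. Thyroid hormone targets rose for 4 of 6, Thrsp by 6.61 (SE 0.34). Rora rose by 1.06 (SE 0.11, adjusted p = 1.6e-05), a change that came to 0.85 after quantile normalization and to 0.99 without the first non-induced replicate, both under 2-fold. Esr1 was near background in both groups and at least 1.38-fold higher with induction (adjusted p = 0.00066), with 1 of 3 induced arrays well above background. Its change with normexp background correction was 0.74, under 2-fold.

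Receptors that fell under induction at P1 were orphans apart from Thra. Nr4a1 was at -1.43, -1.21 and -1.20 in P1 induced CLiPs, against 0.40, 0.14 and 0.56 without induction, a change of -1.65 (SE 0.30, adjusted p = 0.0012). Nr4a2 was at -1.88, -1.82 and -1.80 in P1 induced CLiPs, against 0.20, 0.20 and 0.41 without induction, a change of -2.10 (SE 0.26, adjusted p = 7.9e-05). Both sets of induced arrays lay below every non-induced array, while 0 of 8 other immediate early genes were called by limma, and 1 had an unadjusted p under 0.05. Nr2f2 was at -0.04, 0.43 and -0.23 in P1 induced CLiPs, against 0.98, 1.45 and 1.21 without induction, a change of -1.16 (SE 0.23, adjusted p = 0.0020). Stellate cell and fibroblast markers summed to 55.9 to 109 in P1 induced CLiPs and 22.4 to 60.2 without induction. Of 7 tested, 1 was higher, the matrix proteoglycan Dcn (2.54, SE 0.70, adjusted p = 0.013), and 1 was lower, Reln. Reln was at -3.75, -3.73 and -3.44 in P1 induced CLiPs, not above background, against 0.01, 0.08 and 1.25 without induction. Of 7 biliary and progenitor markers, 4 fell, Krt19 by 3.01 and Epcam by 2.15 on the log2 scale, and 1 rose, so their median was -2.15 although their sums were 692 to 813 in P1 induced CLiPs and 475 to 509 without induction. The part of these markers in the receptor results was not tested. Retinoid and vitamin D receptor targets were higher for 1 of 6 and lower for 1, Dhrs3 (-1.43, SE 0.32), at this step.

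The receptor of the inducer itself, Nr3c1, was at 3.55, 3.70 and 3.69 in P1 induced CLiPs, against 3.13, 3.27 and 3.38 without induction. Its arrays did not overlap, but the change of 0.39 (SE 0.10, adjusted p = 0.012) was under 2-fold. Of 9 tested glucocorticoid receptor targets, 7 rose and none fell, among them the steroid receptor cochaperone Fkbp5 at 2.21 (SE 0.18) and the amino acid catabolic enzyme Tat at 3.00 (SE 0.28). Hnf4a, a nuclear receptor and hepatocyte regulator that was not among the 39, changed by 1.31 (SE 0.16) under P1 induction and by -1.31 (SE 0.16) in P1 CLiPs at day 0 against fresh hepatocytes.

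Without the inducers, 8 days of P1 culture moved receptors in both directions. Against day 0, 3 of 35 rose and 2 fell, or 14.3% called, against 11.1% of all genes tested (6.28% higher and 4.86% lower). Vdr was at -0.62, -0.46 and -0.88 at day 8 without induction, against -3.19, -2.57 and -3.37 at day 0, a change of 2.39 (SE 0.19, adjusted p = 1.0e-05). Nr2f2 was at 0.98, 1.45 and 1.21 at day 8 without induction, against -0.44, -0.53 and -0.66 at day 0, a change of 1.76 (SE 0.23, adjusted p = 0.00024). Thra changed by 0.985 (adjusted p = 0.0055) and Rora by 0.864 (adjusted p = 0.00016), both under 2-fold. After quantile normalization both passed it, at 1.049 and 1.033. Thra read 0.85, 1.02 and 0.91 at day 0, beside 0.76, 0.82 and 0.72 in P1 induced CLiPs. Rarb changed by 1.77 (SE 0.45, adjusted p = 0.012), with only 1 of 3 day-0 arrays well above background, and by 0.90 with normexp background correction, which is under 2-fold. Thrb was at least 1.66-fold lower and Esr1 at least 1.41-fold lower at day 8, and both were at background there. With normexp background correction their changes were -0.45 and -0.55, under 2-fold. Macrophage markers summed to 17.1 to 22.8 at day 8 without induction and 3.45 to 3.75 at day 0, through Csf1r (2.66, SE 0.24, adjusted p = 2.6e-05), with Clec4f, Cd5l, Adgre1 and Vsig4 not above background in either group, and their part in these results was not tested.

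Against fresh hepatocytes, P1 induced CLiPs still had 19 of 35 receptors lower and 2 higher, with 60% called, against 39.1% of all genes tested (18.8% lower and 20.3% higher). This comparison uses the same fresh arrays as the day-0 one, so the values are set side by side only. The median change was -1.09, beside -2.07 at day 0. Rxra (-0.43), Rora (-0.33), Pparg (-0.75) and Nr1h4 (-0.93) were no longer past 2-fold in induced CLiPs, although Nr1h4 came to -1.04 without the third induced replicate and to -1.09 without the third fresh one. A second Rxra probe gave -1.01. Ppara was still 3.08 below fresh on the log2 scale (change -3.08, SE 0.26), Nr1i2 changed by -2.87 (SE 0.23), Thrb by -2.83 (SE 0.15) and Nr1i3 by -4.97 (SE 0.21). For Nr4a1 the change from fresh was -4.68 (SE 0.30) after induction, beside -2.68 at day 0. Vdr was at least 4.43-fold higher than in fresh hepatocytes (adjusted p = 1.0e-08), and Nr4a2 changed by 1.61 (SE 0.26), or by 0.50 with normexp background correction, which is under 2-fold.

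**Figure D3:**
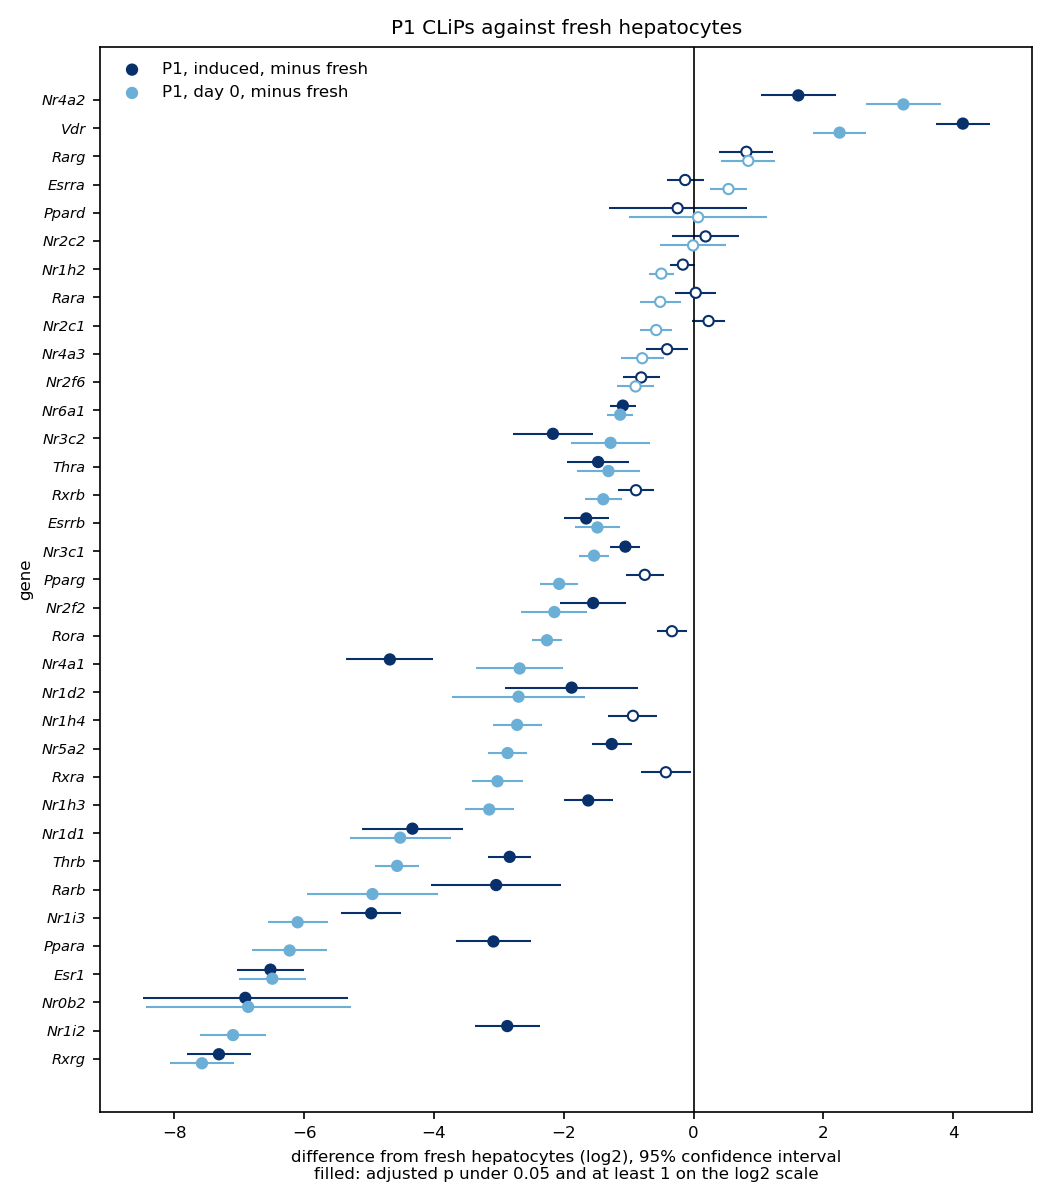
Differences of P1 induced CLiPs (dark) and P1 CLiPs at day 0 (light) from fresh hepatocytes for the 35 receptors tested, in log2 units with 95% confidence intervals, ordered by the day-0 difference. Filled points passed both thresholds of a call. Nr1i2, Ppara, Rxra and Nr1h4 lay closer to 0 after induction, Nr1i3, Esr1, Rxrg and Nr0b2 stayed below -4.9 at both points, and both series share the fresh arrays.

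At late passage the question was whether receptors still responded to the inducers. Induction raised 4 of 34 tested receptors and lowered 3, so 20.6% were called, against 6.00% of all genes tested (2.94% higher and 3.06% lower). Arrays of the 2 groups were apart for all 7, which a call makes likely and which was not counted over all genes. Rarb had the largest change of the 7: it was at 1.02, 0.37 and -0.27 in late induced CLiPs, against -3.37, -3.18 and -3.80 without induction, a change of 3.82 (SE 0.37, adjusted p = 0.00055). Stellate cell and fibroblast markers summed to 9.91 to 12.6 in late induced CLiPs and 12.6 to 15.6 without induction, most of it from Acta2, with Lrat not above background in either group. The fibroblast marker Dcn was higher, at -2.96, -3.16 and -1.37 in late induced CLiPs, against -5.43, -6.93 and -4.80 without induction, where 1 of 3 arrays was well above background (change 3.22, SE 0.61, adjusted p = 0.0094). The part of these markers in the Rarb result was not tested. Of 5 tested targets of the retinoid and vitamin D receptors, 1 rose and none fell. Among them Dhrs3 was at 3.00, 1.43 and 2.31 in late induced CLiPs, against 3.19, 3.17 and 3.07 without induction, and was not called (adjusted p = 0.2). A second Rarb probe, above background on 4 of 6 arrays, gave 2.88. Thrb was at -1.06, -1.07 and -1.30 in late induced CLiPs, against -3.51, -3.52 and -3.68 without induction, a change of 2.43 (SE 0.19, adjusted p = 0.00025). Rxra was at 5.66, 5.39 and 5.97 in late induced CLiPs, against 4.26, 4.04 and 4.06 without induction, a change of 1.55 (SE 0.16, adjusted p = 8.0e-04). Nr1h4 was at 4.77, 4.33 and 4.37 in late induced CLiPs, against 3.29, 3.01 and 2.97 without induction, a change of 1.40 (SE 0.19, adjusted p = 0.0025), and a second Nr1h4 probe gave 0.91, short of 2-fold. Of these 4, all but Rarb had risen at P1 too, and among all genes tested at both passages that rose at late passage 65.9% had. That is 75% of the 4 and 30% of the 10 that rose at P1, against 65.9% and 21.4% for all genes.

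Falls at late passage were seen in a clock repressor and in orphan receptors. Nr1d1 was at -2.99, -2.36 and -2.53 in late induced CLiPs, against -1.77, -1.09 and -1.17 without induction, a change of -1.29 (SE 0.24, adjusted p = 0.0087). Its paralogue Nr1d2 changed by -0.95 (SE 0.07, adjusted p = 0.00018), just under 2-fold. Of 12 other clock genes tested, Nfil3 and Bhlhe41 rose, and Dbp and Per3 fell. Nr4a1 was at -1.56, -1.54 and -1.75 in late induced CLiPs, against -0.51, -0.62 and 0.08 without induction, a change of -1.26 (SE 0.18, adjusted p = 0.0028). Rorb, a retinoid-related orphan receptor known mainly from the nervous system, changed by -1.15 (SE 0.16, adjusted p = 0.0027). With normexp background correction Nr1d1 changed by -0.91 and Rorb by -0.89, under 2-fold.

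Nr1i2 and Nr5a2, which rose at P1, varied widely between late samples. Nr1i2 was at -2.90, -3.64 and -0.33 in late induced CLiPs, against -5.17, -6.68 and -3.25 without induction, a change of 2.74 that did not pass the test (SE 1.0, adjusted p = 0.096). Replicate 3, the sample at passage 11, was highest in both groups, and with the replicate number as a block the same change passed (adjusted p = 0.028). Nr5a2 was at -2.65, -4.20 and -1.20 in late induced CLiPs, against -2.74, -5.24 and -3.20 without induction, and its groups overlapped (change 1.04, SE 0.82, adjusted p = 0.42). By limma 0 of 9 tested CAR and PXR targets (median 0.10) and 0 of 6 FXR targets and bile acid enzymes (median 1.36) were called, and 0 of either list had an unadjusted p under 0.05. These counts are from the fit without a replicate block, and the blocked fit was not examined for these lists. The third induced sample, at passage 11 and with its array on a slide of its own, stood apart for some genes of both lists and not for others. In 2 genes chosen after their values were seen, Abcb11 was at -3.63, -5.79 and -0.47 in late induced CLiPs, against -5.03, -5.75 and -6.55 without induction, and Cyp3a11 was at -2.42, -3.92 and 0.12 in late induced CLiPs, against -3.31, -4.08 and -3.89 without induction. The late induced arrays showed no such gap for Gstm1, at 4.75, 4.18 and 4.71, or for Slc10a1, at 8.6, 8.79 and 8.55. The parts of slide and passage number were not tested. Of the others, 3 of 7 LXR targets rose, and 5 of 9 glucocorticoid receptor targets rose, with Sgk1 at 2.61 (SE 0.16). Nr3c1 was at 3.73, 3.64 and 3.47 in late induced CLiPs, against 3.57, 3.47 and 3.32 without induction, and was not called (0.16, SE 0.11).

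The response itself was compared between passages by an interaction test over all 21 arrays, in which a constant offset of the scanner cancels. It differed for 7 of 37 tested receptors, with 3 responses higher and 4 lower at late passage than at P1, or 18.9% called, against 9.94% of all genes tested (4.73% higher and 5.21% lower). Rarb had a late response of 3.82 and a P1 response of 0.13, a difference of 3.69 (SE 0.63, adjusted p = 0.00061). Pparg had a late response of -0.68 and a P1 response of 1.87, a difference of -2.55 (SE 0.41, adjusted p = 0.00035). Ppara had a late response of 0.54 and a P1 response of 2.73, a difference of -2.19 (SE 0.34, adjusted p = 0.00029). Of 16 PPAR targets, 3 responses were lower at late passage and none was higher, with a median difference of -0.09. Among the 3 was that of the hormone gene Fgf21, which differed by -5.39 (SE 1.75, adjusted p = 0.041). Late Fgf21 levels were scattered, at -4.25, -6.95 and -0.82 with induction and -2.72, -6.99 and -4.3 without. For Nr1h4 the difference was -1.18 (SE 0.26, adjusted p = 0.0048), for Nr1h3 -1.07 (SE 0.36, adjusted p = 0.046), for Nr4a2 1.41 (SE 0.35, adjusted p = 0.0095) and for Rarg 1.01 (SE 0.27, adjusted p = 0.015). Averaging all probes of a gene ended the calls of Nr1h4 (-0.93), Nr1h3 (adjusted p = 0.052) and Rarg (0.59, adjusted p = 0.25). The Nr1h3 call was also lost after quantile normalization (adjusted p = 0.059), without the filter on dim probes (adjusted p = 0.079) and in 9 of 12 fits that left out 1 array (adjusted p up to 0.11). The Rarg call was also lost with normexp background correction (0.98) and in 8 of these 12 fits, with differences down to 0.90. Nr1d2 was not called, but differed by -1.35 (adjusted p = 2.1e-05) with the replicate number as a block and by -1.41 (adjusted p = 0.014) with slide as a random block. The Rarg response was 0.61 at late passage and -0.40 at P1, neither of which was called alone. Thrb, with responses of 2.43 and 2.97, differed by -0.55 (95% confidence interval -1.07 to -0.02, adjusted p = 0.14).

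**Figure D4:**
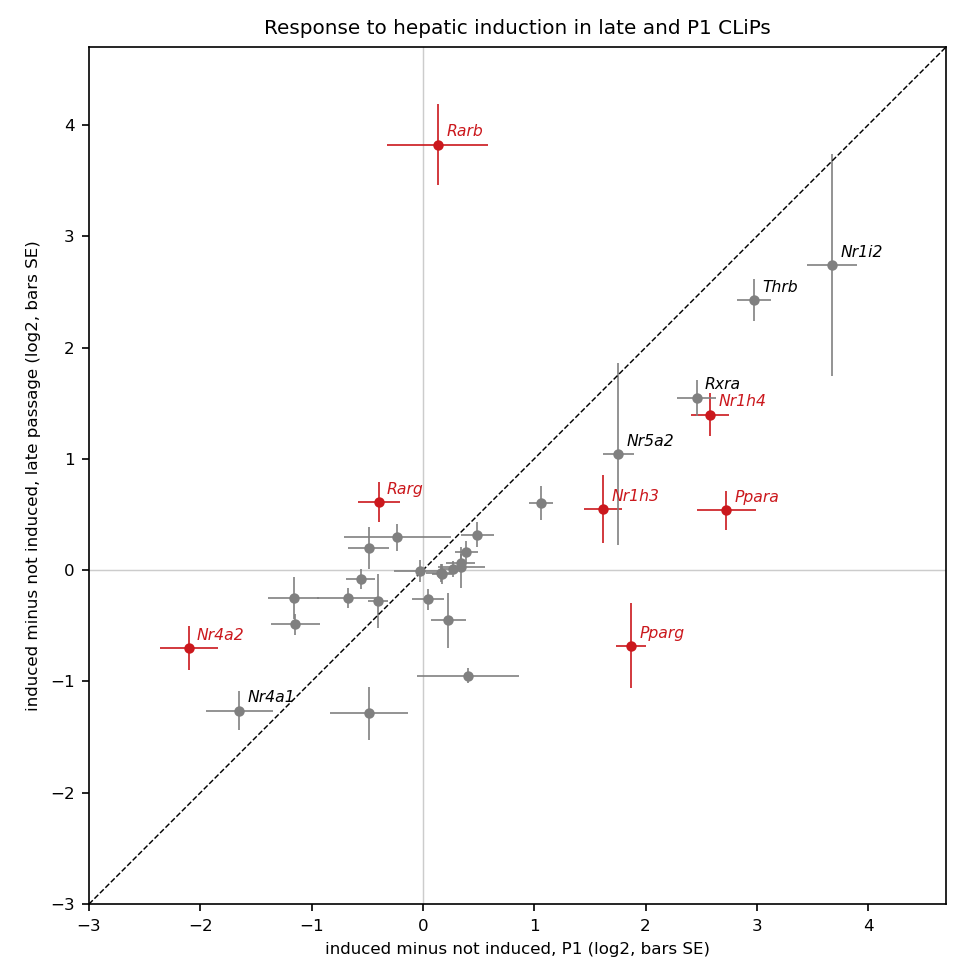
Response to hepatic induction at late passage (vertical axis) and at P1 (horizontal axis) for the 32 receptors tested at both, as induced minus non-induced log2 level with SE bars. The dashed line marks equal responses, and red points are receptors whose responses differed in the interaction test. Rarb lies far above the line, at 3.82 against 0.13, and Ppara and Pparg lie far below it.

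A period of 8 days without inducers raised 6 of 34 tested receptors at late passage and lowered none, or 17.6% called, against 14.5% of all genes tested (8.19% higher and 6.36% lower). Vdr was at 0.22, 0.59 and 0.25 at day 8 without induction, against -2.27, -1.57 and -1.95 at day 0, a change of 2.28 (SE 0.19, adjusted p = 5.7e-05). Rora was at 3.91, 3.62 and 3.59 at day 8 without induction, against 1.52, 1.73 and 1.77 at day 0, a change of 2.03 (SE 0.15, adjusted p = 3.8e-05). Nr2f2 changed by 1.82 (SE 0.19, adjusted p = 0.00018). Both Vdr and Nr2f2 had risen at this step at P1 as well. Nr1d1 changed by 1.61 (SE 0.24, adjusted p = 0.00099), and 5 of 12 other clock genes rose, Dbp by 1.98. Nr5a2 was at -2.74, -5.24 and -3.20 at day 8, with 2 of 3 arrays well above background, against -7.04, -7.26 and -7.03 at day 0, where none was, so it was at least 2.09-fold higher (adjusted p = 0.011). With normexp background correction its change was 1.09 (adjusted p = 0.082). Nr1h3 changed by 1.17 (SE 0.31, adjusted p = 0.015), by 0.83 without the first day-0 replicate, which is under 2-fold, and with an adjusted p of 0.055 without the third non-induced one. With the replicate number as a block, Nr1i2 also rose (1.98, adjusted p = 0.043) and Nr2f1 (COUP-TFI) fell (-1.26, adjusted p = 0.00075). Hepatocyte markers summed to 302 to 411 at day 8 without induction and 49.2 to 147 at day 0, with 3 of 8 higher and none lower. Macrophage markers summed to 7.4 to 12.8 at day 8 and 3.28 to 3.96 at day 0, through Csf1r (1.79, SE 0.22), with Cd5l, Adgre1 and Vsig4 not above background in either group. Stellate cell and fibroblast markers summed to 12.6 to 15.6 at day 8 and 30.8 to 32.7 at day 0. Biliary and progenitor markers summed to 383 to 518 at day 8 and 292 to 325 at day 0, and the part of these markers in the receptor results was not tested.

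Between the day-0 states, late CLiPs had 5 of 37 tested receptors higher and 10 lower than P1 CLiPs, or 40.5% called, against 13.4% of all genes tested (4.33% higher and 9.11% lower), and passage and scanner cannot be told apart here. Nr1i2 and Rxrg were at background in both groups, which leaves 13 receptors with a measured level in at least 1 group. Nr5a2 was at -7.04, -7.26 and -7.03 in late CLiPs, not above background on any array, against 1.21, 0.94 and 1.25 in P1 CLiPs, at least 60.5-fold lower (adjusted p = 4.0e-08). Nr1h3 changed by -1.63 (SE 0.25), Rxra by -1.42 (SE 0.18), Rora by -1.24 (SE 0.13), Rarg by -1.29 (SE 0.19), Nr4a3 by -1.02 (SE 0.14) and Esrrb by -1.28 (SE 0.21), and Esr1 was at least 2.43-fold lower. Nr1h4 went the other way, at 4.36, 3.75 and 3.84 in late CLiPs against 2.55, 2.50 and 2.73 in P1 CLiPs, a change of 1.39 (SE 0.19, adjusted p = 3.2e-05). Nr2f1 was at 0.24, -0.95 and -0.04 in late CLiPs, against -3.36, -4.55 and -5.76 in P1 CLiPs, where 1 of 3 arrays was well above background, a change of 4.31 (SE 0.65, adjusted p = 8.4e-05). Rorb was at -1.24, -1.26 and -1.22 in late CLiPs, against -4.91, -5.51 and -4.59 in P1 CLiPs, where it was not above background, at least 6.27-fold higher (adjusted p = 2.0e-08). Thra (1.21, SE 0.18) and Vdr (1.11, SE 0.19) were also higher. With normexp background correction Nr4a3 (-0.88), Esrrb (-0.77) and Vdr (0.55) were under 2-fold, and the mean of all Esrrb probes gave -0.18 (adjusted p = 0.5). Hepatocyte regulators outside the 39 were lower for 6 of 9 and higher for none.

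Set against fresh hepatocytes, with scanner again tied to the groups, late induced CLiPs had 20 of 37 tested receptors lower and 4 higher, or 64.9% called, against 51.3% of all genes tested (26.6% lower and 24.7% higher). The median was -1.33, against -0.01 for all genes, and came to -0.64 after quantile normalization, under which the median of all genes moved to 0.19. Nr1i3 changed by -5.28 (SE 0.21), Nr5a2 by -6.68 (SE 0.59), Ppara by -4.58 (SE 0.24), and Esr1 was at least 186-fold lower. Nr2f6, an orphan receptor of the COUP-TF family, was at 4.40, 4.50 and 4.61 in late induced CLiPs, against 5.56, 5.89 and 6.03 in fresh hepatocytes, a change of -1.33 (SE 0.11, adjusted p = 7.1e-09), which came to -0.64 after quantile normalization and -0.53 with the mean of all probes. Rarb (-0.52, 95% confidence interval -1.46 to 0.42) and Nr1h4 (-0.83, SE 0.19) were not called. Vdr was at 0.57, 0.68 and 0.41 in late induced CLiPs, against the background values of -5.21, -5.31 and -5.36 in fresh hepatocytes, and was at least 14.3-fold higher (adjusted p = 6.0e-14). Nr4a2 changed by 1.62 (SE 0.25), Nr2f1 was at least 3.73-fold higher and Rorb at least 2.24-fold higher, and with normexp background correction these 3 changed by 0.37, 0.70 and 0.63, under 2-fold.

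Among the receptors without a call, Nr1h2 stayed between 3.70 and 4.31 on the 21 arrays, Nr2c2 between 0.23 and 1.28, and Nr2c1, an orphan receptor of the same subfamily, between 0.86 and 1.83. Esrra, the oestrogen-related receptor that works with PGC-1 coactivators, stayed between 3.83 and 4.93 and was not called, though in late induced CLiPs against fresh hepatocytes its change was 1.20 (adjusted p = 2.7e-08) after quantile normalization and 1.99 (adjusted p = 8.4e-08) with the mean of all probes, which also gave 1.42 (adjusted p = 0.00016) in P1 CLiPs at day 0. Rara, the most widely expressed retinoic acid receptor, ranged between 2.48 and 4.49, its highest levels being in late CLiPs after 8 days without induction (0.96 above day 0, SE 0.09, adjusted p = 0.00013, under 2-fold). In late induced CLiPs against fresh hepatocytes Rara passed 2-fold after quantile normalization (1.22), with normexp background correction (1.03) and with the mean of all probes (1.02). Esrrg was between -4.99 and -2.74 and untested.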

How the data were processed

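Total RNA of 21 samples in 7 groups of 3 was hybridised to one-colour Cy3 Agilent arrays of one design. The deposited scanner files hold the intensity of each spot, background-subtracted within the array by Agilent Feature Extraction, per the file headers with version 11.5.1.1 where cells were fresh or P1 and with version 10.7.3.1, on another scanner, where they were late. Authors' deposited tables of log2 values were set against these intensities and used as an alternative. From each array's log2 processed signal its 75th percentile was subtracted, replicate spots were averaged per probe, and the brightest probe, by its mean across the 21 arrays, stood for a gene. Of 37074 gene names, 84 were left out for an outlier spot. No spot was saturated, and the number of arrays limits the precision.

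Testing required a signal well above background on every array of 1 or more of the fitted groups. Tests used limma 3.58.1 in R 4.3.3 (lmFit and eBayes, Benjamini-Hochberg adjustment over 20619 genes for fresh and P1 arrays, 21313 for late arrays and 22353 for all arrays), and were tested on simulated data. A fold against a group at background is a lower bound, from the other group's mean against the higher of the dim probe's own signal and the lowest signal well above background, on each array. Marker sums add linear signals relative to the 75th percentile.

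The receptors and gene lists were chosen with earlier results of these data known. All 39 receptors are accounted for, those called in at least 1 comparison by role, and from each other list at most 4 called genes per direction with the largest change; list examples follow that rule in the comparison described, and some listed genes are not reported here. One fresh sample, replicate 3, carries a P1 passage label, while its title says fresh, and it was kept as fresh. Every fit gives its values without a replicate block, and the blocked fit is an alternative whose value stands where it changes a call. Replicate numbers paired the samples at late passage, where same-numbered arrays deviated together (correlations 0.247 to 0.53, 9 of 9 arrays best with their own number). Among fresh and P1 arrays the pairing was less clear (-0.115 to 0.414, 8 of 12 arrays). Fresh arrays correlated with same-numbered P1 arrays at -0.053 to 0.049. Between P1 groups the correlations were 0.069 to 0.414, except -0.115 for replicate 2 at day 0 and with induction. Alternatives were quantile normalization, normexp background correction with an offset of 50, no filter on dim probes, the mean of all probes, 1 fit of all arrays, a replicate block, slide as a block or within a slide, leaving out each array, the deposited tables, and, chosen after seeing the data, scan date as a block.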

Additional observations from a re-analysis of the deposited data

Results flagged for a closer look

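For 7 receptors the response to induction differed between late passage and P1 by the interaction test (limma, adjusted p under 0.05 and at least 2-fold). The late response minus the P1 response, in log2 units, was 3.69 for Rarb, 1.41 for Nr4a2 and 1.01 for Rarg. It was -2.55 for Pparg, -2.19 for Ppara, -1.18 for Nr1h4 and -1.07 for Nr1h3. Rarb levels rose with induction at late passage on 3 of 3 arrays, and its P1 arrays with and without induction overlapped. Ppara and Pparg levels rose with induction at P1 on 3 of 3 arrays each. Between late samples of the same number, Ppara was higher and Pparg lower with induction in 3 of 3 pairs. The calls of Nr1h3 and Rarg were lost in 9 and 8 of 12 fits that left out 1 array.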

How the results depend on the processing

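No called receptor change reversed under any alternative run. Of 125 called changes, 115 kept their side of the threshold after quantile normalization, 104 with normexp background correction, 110 with the mean of all probes and 124 without the filter on dim probes. All 103 that the authors' deposited tables could give kept it too. Those tables hold the same processed signal up to constants, so this result was nearly fixed in advance. The count for P1 day 8 without induction against day 0, which was 5, came to 2 with normexp background correction, to 2 with the mean of all probes and to 2 within slide 5. The count of induction responses that differed between late passage and P1, which was 7, came to 4 with the mean of all probes. Leaving out each array in turn gave 26 to 26 called receptors for P1 day 0 against fresh, 13 to 14 for P1 induction, 5 to 6 for P1 day 8 without induction, 20 to 22 for P1 induced against fresh, 7 to 8 for late induction, 5 to 8 for late day 8 without induction, 5 to 9 for the difference of responses, 13 to 14 for late against P1 day 0 and 24 to 24 for late induced against fresh. With scan date as a block, chosen after seeing the data, 45 of 47 kept their call, and Nr3c2 (-0.70) in P1 CLiPs at day 0 and Nr1d2 (-0.76) in P1 induced CLiPs, both against fresh, did not, while Nr2f6 (-1.10), Nr4a3 (-1.06) and Ppard (-1.25) in P1 CLiPs at day 0 and Nr2f6 (-1.01) and Ppard (-1.57) in P1 induced CLiPs, all against fresh, became called.

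With the replicate number as a block, all 125 called changes remained called. The pairing added Nr1d2 to the responses that differed (-1.35, adjusted p = 2.1e-05), Nr1i2 under late induction (adjusted p = 0.028) and at late day 8 (adjusted p = 0.043), and Nr2f1 at late day 8 (adjusted p = 0.00075). Signal near background limits the folds of Nr0b2, Nr1i2, Nr4a2, Nr5a2, Nr2f1, Esr1, Esrrb, Rarb, Rorb, Rxrg, Thrb and Vdr.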
